A study of Mus musculus with 32 samples.

Results

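Single-exon genes of at least 1000 bases were followed in RNA-seq libraries of mouse B cells with and without ELOF1. The set was chosen by gene structure and mean count: a gene entered it when the deposited count tables gave it 1 exon, a length of 1000 bases or more, and a mean count of at least 20 over the 16 libraries of each table. This left 252 of 43345 mouse genes. Of all mouse genes, 16056 had a single exon and 2887 of these were 1000 bases or longer. The count minimum was reached in the cell line alone by another 56 genes and in spleen cells alone by another 80. Just below the length limit stood mt-Nd1 with 957 bases, Gm10052 with 960 and Gm9892 with 992, and just above it 2010320M18Rik with 1009, Rpsa-ps10 with 1031 and mt-Nd2 with 1038. Just under the count limit were Gm38375, with a mean of 19.2 counts in spleen cells, and AA386476, with 19.6 in the cell line, whereas Gm2223 passed with 20.2. The mean counts helped to choose the set, so levels and the contrast between the cell line and spleen cells are given as a description without a test.

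There were 2 systems with 16 libraries each. CH12F3, a mouse B lymphoma line that switches its antibody class in culture, carried an Elof1 knockout in every library, together with either an ELOF1 construct (ELOF1-proficient) or the vector (ELOF1-deficient). All CH12F3 cultures received α-CD40, IL4 and TGF-β, for 1.5 days (4 libraries of each genotype), 3 days (2 of each) or 7 days (2 of each). B cells from spleen were Elof1-cKO or wild-type and all received IL4 and LPS, for 2.5 days (5 of each) or 3.5 days (3 of each). The labels give no Cre driver, no clone number of the knockout line, no age of the mice and no statement that replicates came from separate cultures or animals, so p-values measure only the spread between these libraries, which may be technical. The library names fall into a first series, numbered 15 to 22 (8 libraries), and a second series with much higher numbers (24 libraries). Both series hold both genotypes only in CH12F3 at day 1.5, where replicates 1 and 2 were first-series, and in spleen cells at day 2.5, where replicates 4 and 5 were. Every later group came from the second series.

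A gene with 1 exon yields an RNA that needs no splicing. Such genes include the replication-dependent histone genes, whose mRNAs end in a conserved stem-loop instead of a poly(A) tail, many immediate-early genes, which respond to stimulation within minutes, and retrocopied pseudogenes, which arise when a spliced mRNA is copied back into the genome. The mitochondrial genome also encodes its genes without introns. ELOF1 travels with elongating RNA polymerase II and is needed for transcription-coupled DNA repair.

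By GENCODE M21 class, the 252 genes comprised 106 protein-coding genes, 65 TEC entries (transcripts that still await experimental evidence), 42 pseudogenes, 22 long noncoding RNAs, 6 mitochondrial genes (mt-Rnr2, mt-Co1, mt-Cytb, mt-Nd2, mt-Nd4 and mt-Nd5) and 11 entries without a name in that release. Of the 65 TEC entries, 55 lay in an intron of another gene on the same strand, and 26 were on chromosome 1. In all, 76 of the 252 lay inside a same-strand intron, spread over 65 host genes: 55 TEC entries, 9 pseudogenes, 7 protein-coding genes, 4 long noncoding RNAs and 1 unnamed entry. Fli1 held 4 of them, Dock10 and Snd1 3 each. A further 9 lay in an intron on the other strand, 40 overlapped an exon on the other strand, 17 overlapped a same-strand exon, and 110 overlapped no other gene. The median length was 2372 bases, up to 84395 for Kcnq1ot1, and 104 genes were shorter than 2000 bases.

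The upstream sequences of 7 members that changed with time or genotype are printed here, because groups of them moved together in the comparisons that follow. Each window runs from 200 bases before to 30 bases after the RefSeq start site on GRCm38.p6, 5′ to 3′ on the gene's strand. Capitals mark the letters CCAAT of a CCAAT box, the letters GGGCGG of a GC box and the letters TATAAA of a TATA box, on either strand. The windows are chr12:8499980-8500209 minus for Rhob, chr10:59221722-59221951 plus for Sowahc, chr8:84978719-84978948 minus for Junb, chr1:155099607-155099836 minus for Ier5, chr4:95052193-95052422 minus for Jun, chr13:23738607-23738836 plus for Hist1h1c and chr6:136804402-136804631 minus for Hist4h4. The RefSeq start lay 24 bases from the start in the count table for Rhob and 31 for Sowahc.
Rhob: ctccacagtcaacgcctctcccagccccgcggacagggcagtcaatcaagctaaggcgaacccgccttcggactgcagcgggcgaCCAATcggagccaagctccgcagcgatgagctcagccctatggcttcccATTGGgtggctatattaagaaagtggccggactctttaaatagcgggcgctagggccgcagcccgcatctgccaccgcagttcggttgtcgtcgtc
Sowahc: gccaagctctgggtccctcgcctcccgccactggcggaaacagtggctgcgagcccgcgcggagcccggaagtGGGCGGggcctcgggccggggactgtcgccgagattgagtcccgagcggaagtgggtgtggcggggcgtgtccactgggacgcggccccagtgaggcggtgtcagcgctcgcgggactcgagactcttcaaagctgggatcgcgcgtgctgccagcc
Junb: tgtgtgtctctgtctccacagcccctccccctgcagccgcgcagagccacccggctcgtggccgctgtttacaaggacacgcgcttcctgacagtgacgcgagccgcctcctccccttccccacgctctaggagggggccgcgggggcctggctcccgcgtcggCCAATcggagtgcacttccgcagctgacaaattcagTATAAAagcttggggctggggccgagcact
Ier5: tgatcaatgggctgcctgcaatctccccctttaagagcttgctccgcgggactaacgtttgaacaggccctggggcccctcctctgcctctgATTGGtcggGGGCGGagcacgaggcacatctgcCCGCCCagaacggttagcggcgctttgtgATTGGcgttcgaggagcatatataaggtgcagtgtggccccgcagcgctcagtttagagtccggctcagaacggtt
Jun: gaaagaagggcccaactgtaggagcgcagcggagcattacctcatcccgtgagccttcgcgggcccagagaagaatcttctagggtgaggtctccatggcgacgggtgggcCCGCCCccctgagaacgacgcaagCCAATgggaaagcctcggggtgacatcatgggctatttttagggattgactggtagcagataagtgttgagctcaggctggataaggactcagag
Hist1h1c: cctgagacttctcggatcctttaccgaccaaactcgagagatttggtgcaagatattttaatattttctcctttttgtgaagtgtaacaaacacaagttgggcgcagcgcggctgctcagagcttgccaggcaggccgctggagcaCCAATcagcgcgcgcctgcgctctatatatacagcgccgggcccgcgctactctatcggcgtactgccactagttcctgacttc
Hist4h4: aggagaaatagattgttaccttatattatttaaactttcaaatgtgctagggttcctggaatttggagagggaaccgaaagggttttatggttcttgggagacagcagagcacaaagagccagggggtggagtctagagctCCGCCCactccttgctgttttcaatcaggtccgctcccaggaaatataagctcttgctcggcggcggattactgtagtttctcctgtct
CCAAT occurred in 5 of these windows, at -115 and -66 in Rhob, -36 in Junb, -108 and -46 in Ier5, -65 in Jun and -54 in Hist1h1c. Sowahc and Hist4h4 held GGGCGG only, at -127 and -59, which also occurred in Ier5 and Jun. Junb alone of the 7 held TATAAA, at its start site. Among the 91 members matched to RefSeq by symbol, the motif CCAAT was in 38.5% against 31.7% of all 32516 RefSeq windows of the same length, GGGCGG in 56.0% against 33.4%, and TATAAA in 7.69% against 10.7%. TGACGTCA, the letters of a cAMP response element, were in 8.79% of the members' windows (8 genes: Ddx28, Irf2bpl, Nsmce3, Purb, Ranbp6, Tbcc, Tspyl4 and Wdr5b) against 1.68% of all windows. TGACTCA, an AP-1 letter run, was in 2.20% against 4.16%. Each motif was searched on both strands, and none of these letter runs contains another. A match is a description of letters and not a measured site.

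The histone stem-loop that ends replication-dependent histone mRNAs was searched by its consensus, which the capitals show, in the GENCODE M21 transcripts of the 9 histone members. It was found in 6 of them and is printed with 5 bases on each side, with the motif in capitals.
Hist4h4: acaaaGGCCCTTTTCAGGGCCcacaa
Hist2h4: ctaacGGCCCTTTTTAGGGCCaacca
Hist3h2a: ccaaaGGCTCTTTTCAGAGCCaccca
Hist1h1c: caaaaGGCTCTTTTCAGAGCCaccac
H2afx: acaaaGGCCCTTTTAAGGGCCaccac
Hist2h3c1: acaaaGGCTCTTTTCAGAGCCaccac
These letters ended 2445 bases before the end of the entry counted for Hist4h4 and 822 bases before that of H2afx, so the counted entries run on well past the stem-loop. H1f0 and H2afj, which are replication-independent histone genes, and Hist2h2be held no match.

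Counts assigned to mouse genes ranged from 7112130 to 15550229 per CH12F3 library and from 9807560 to 16359477 per spleen library, and the members took 1.72 to 3.71% and 1.67 to 3.73% of them. Levels below are counts per 1000000 mouse counts (CPM), with library sizes scaled by edgeR's TMM method. Elof1 itself was at 140 to 681 CPM in proficient and 0.966 to 5.49 in deficient CH12F3 libraries, and at 11 to 55.1 against 1.27 to 7.65 CPM in spleen cells, so every library matched its label. The 6 B cell markers summed to 825 to 1456 CPM in CH12F3 and 2822 to 4696 in spleen cells. In CH12F3 they were higher with vector than with ELOF1 on every day, at 1022 to 1303 against 825 to 996, 1190 to 1456 against 1001 to 1108 and 1210 to 1353 against 1016 to 1111 CPM on days 1.5, 3 and 7. In spleen cells the genotypes overlapped, with the higher range in Elof1-cKO. It was at 3260 to 4545 against 2822 to 3943 CPM at day 2.5 and 3871 to 4696 against 3380 to 4031 at day 3.5. The part of these markers in the genotype results was not tested in either system. The 5 plasma cell markers summed to 429 to 952 CPM in CH12F3. In spleen cells they were higher at day 3.5, at 759 to 988 and then 1129 to 1561 CPM in wild-type and 628 to 877 and then 983 to 1189 in Elof1-cKO. T cell markers reached at most 86.5 CPM in CH12F3 and 2.73 in spleen cells, and NK and erythroid markers at most 4.25. The 8 myeloid markers summed to 46.9 to 235 CPM in CH12F3, highest at day 7 (124 to 235), with S100a8 and S100a9 at 0, and to 4.47 to 19.3 in spleen cells. In a bulk sample fewer cells of a type and less RNA per cell cannot be told apart.

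Per kilobase of gene, mt-Rnr2 and mt-Co1 had the highest means in both systems. The large mitochondrial ribosomal RNA mt-Rnr2 stood at 3818 ± 2989 CPM per kb in CH12F3 and 3609 ± 5054 in spleen cells (mean ± SD, n = 16 libraries each, as for all levels per kb here). First-series libraries held more of it than second-series libraries: 5654 to 18624 CPM against 2659 to 5474 in second-series CH12F3 libraries, and 15858 to 20879 against 669 to 2274 in spleen cells. In CH12F3 the 2 series nearly met, in spleen cells they were far apart, so its pooled mean there rests on 4 libraries. The mitochondrial mRNAs mt-Co1 (3583 ± 1210 and 2434 ± 909), mt-Cytb (1126 ± 309 and 673 ± 248), mt-Nd2 (657 ± 220 in CH12F3), mt-Nd5 (570 ± 135 and 441 ± 153) and mt-Nd4 (261 ± 73.0 in CH12F3) were also among the 10 highest in CH12F3. Gm42418, an entry on chromosome 17 that overlaps a ribosomal RNA precursor annotation, was at 996 ± 177 in CH12F3 and 1051 ± 283 in spleen cells. Among nuclear protein-coding members the linker histone gene Hist1h1c led, with 313 ± 45.8 and 653 ± 110. H2afx, which encodes the histone variant phosphorylated at DNA breaks, stood at 299 ± 49.4 in CH12F3. The RNA-binding protein gene Pcbp1 was at 181 ± 28.3 and 283 ± 38.4. AP-1 subunit genes differed in order between systems: Junb was at 215.3 ± 55.2 in CH12F3 and 128 ± 29.5 in spleen cells, whereas Jund was at 163 ± 25.1 and 375 ± 108.

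Of the 252 members, 140 had the higher mean CPM in spleen cells and 112 in CH12F3, and in 27 of them the 16 libraries of the 2 systems did not overlap, beside 19.7% of the 12258 genes tested in both, a share well above that of the members. The tables were scaled separately. A difference of 4-fold or more was seen in 17, with 9 higher in spleen cells and 8 in CH12F3. Fzd7, a Wnt receptor gene, was at 12.1 ± 3.42 CPM per kb in CH12F3 and 0.672 ± 0.810 in spleen cells (18-fold), Rhob, a small GTPase gene, at 61.9 and 14.3 (4.33-fold), and Lpar6, a lysophosphatidic acid receptor gene, at 2.90 and 0.456 (6.35-fold). The spleen values of Fzd7 were uneven: 14.4 and 9.46 CPM in replicate 4 of wild-type and Elof1-cKO at day 2.5, and 0.538 to 3.58 in the other 14 libraries. In the other direction, Gm1966, a pseudogene closest to the interferon-inducible GTPase gene Gvin1, was at 0.368 in CH12F3 and 13.8 in spleen cells (37.6-fold). Sfn, which encodes stratifin, a phosphoprotein-binding adaptor of the cell cycle, was at 1.56 and 22.2 (14.2-fold), Ffar1, a free fatty acid receptor gene, at 1.73 and 13.9 (8.04-fold), and Jun at 5.60 and 22.8 (4.08-fold). Cell line, stimulus and days differ together between the systems and cannot be told apart.

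Genotype was compared within each day by edgeR's quasi-likelihood test on the counts, with library series as a term and Benjamini-Hochberg adjustment over all genes tested in that system. A gene is said to have changed when its adjusted p was below 0.05. In CH12F3 at day 1.5, Sowahc was the 1 member of 252 that changed, where 1.15% of the 14201 genes tested changed. Sowahc encodes a protein with ankyrin repeats and lies at chr10:59221953-59226434 on the plus strand. It overlaps a same-strand exon of an entry not in GENCODE M21, with which reads could be shared. Its level was 55.9, 56.2, 94.6 and 98.8 CPM in the ELOF1 libraries and 98.8, 86.6, 125 and 126 CPM in the vector libraries, in replicate order. Within each replicate number the vector library was the higher, while the groups overlapped across library series. The log2 fold change was 0.55 ± 0.09 (SE, n = 4 and 4), with an adjusted p of 0.0085 by edgeR. It rested on modelling the library series: without that term the adjusted p was 0.495, and within the second series alone 0.449.

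Same-numbered CH12F3 libraries of the 2 genotypes deviated together (correlations of 0.40 to 0.56). This pairing is seen in these same data and is not given by the labels. With the replicate number as a block 12 members changed at day 1.5, where 8.6% of all genes did. Of the 12, 9 were higher in vector libraries (4.5% of all genes) and 3 lower (4.1%). The higher ones included Sowahc (log2 fold change 0.54, adjusted p 0.0006), Ado, a thiol dioxygenase gene (0.41, 0.0013), Junb (0.36, 0.0021), the transcription regulator gene Purb (0.36), the complex II assembly factor gene Sdhaf1 (0.43) and Fzd7 (0.34). The lower ones were the linker histone gene H1f0 (-0.68), Rhob (-0.28) and the histone gene Hist3h2a (-0.26). Under that block the number of members called at day 3 and day 7 was 0, as without it. Across all 252 members at day 1.5 the median log2 fold change was 0.07 and 157 were positive, beside a median of 0.01 over all genes tested. With library sizes scaled by counts of the added fly RNA these medians were -0.04 and -0.08.

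At day 3 and day 7 in CH12F3, 0 of 252 members changed by edgeR, where 0.00704% and 0.0352% of all genes did, and DESeq2 also called 0 on both days. Unadjusted p was below 0.05 for 6 members at day 3 and 21 at day 7, beside 4.15% and 5.7% of all genes. The groups of 2 and 2 libraries did not overlap for 70 and 66 members, beside 32.4% and 32.8% of all genes. Sowahc was at 79.2 and 85.5 CPM with ELOF1 and 101 and 105 with vector at day 3, and at 64.4 and 75.1 against 83.6 and 81.0 at day 7. The vector libraries were above the ELOF1 libraries on both days. The log2 fold changes, 0.33 ± 0.12 and 0.24 ± 0.12, did not pass the test.

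In spleen cells at day 2.5, 11 members changed, where 5.18% of the 13367 genes tested did, a share close to that of the members. Of the 11, 10 were higher in Elof1-cKO (2.82% of all genes) and 1 lower (2.36%). With library sizes scaled by the fly counts only 1 member, Gm10676, was called. The members' median was 0.09 with 174 positive, beside 0.00 over all genes. Under fly scaling these medians were -0.05 and -0.14, so the sign of the members' median depended on the scaling. The 10 included an AP-1 gene, a Notch regulator, a fatty acid receptor and 3 noncoding entries that lie on the other strand of an exon. In 8 of the 252 members the 5 and 5 libraries did not overlap, 7 of them higher in Elof1-cKO, beside 3.12% of all genes.

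Gm10676 changed most. It is a TEC entry at chr7:18989554-18992774 on the minus strand that spans the start of Mypop, a gene on the other strand. Its level was 3.77, 4.75, 3.96, 4.56 and 7.35 CPM in wild-type and 11.4, 10.98, 12.5, 13.8 and 20.03 CPM in Elof1-cKO libraries, in replicate order. Every Elof1-cKO library lay above every wild-type library, and replicate 5 was the highest of both genotypes. The log2 fold change was 1.49 ± 0.17 (SE, n = 5 and 5; 2.81-fold), with an adjusted p of 0.00017 by edgeR. At day 3.5 it was the only member that changed, where 2.07% of genes did: wild-type libraries held 6.24, 5.67 and 6.10 CPM and Elof1-cKO libraries 14.2, 9.75 and 16.2. The groups were apart again, with a log2 fold change of 1.15 ± 0.21 and an adjusted p of 0.0107. That call was lost without wild-type replicate 1, wild-type replicate 3 or Elof1-cKO replicate 3, without the series term, and with library sizes scaled by the fly counts. In CH12F3 the vector library exceeded its same-numbered ELOF1 library on every day, with log2 fold changes of 0.45 ± 0.22, 0.73 ± 0.31 and 0.75 ± 0.30 that did not pass the test. Mypop, on the other strand, had log2 fold changes of -0.69 ± 0.46 at day 2.5 and -1.65 ± 0.59 at day 3.5 (adjusted p 0.483 and 0.195 by edgeR). Mypopos, the other gene set beside Gm10676, had the sign of Gm10676. It was at 0.50 ± 0.25 and 0.78 ± 0.32 on these days (adjusted p 0.329 and 0.286 by edgeR).

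**Figure D1:**
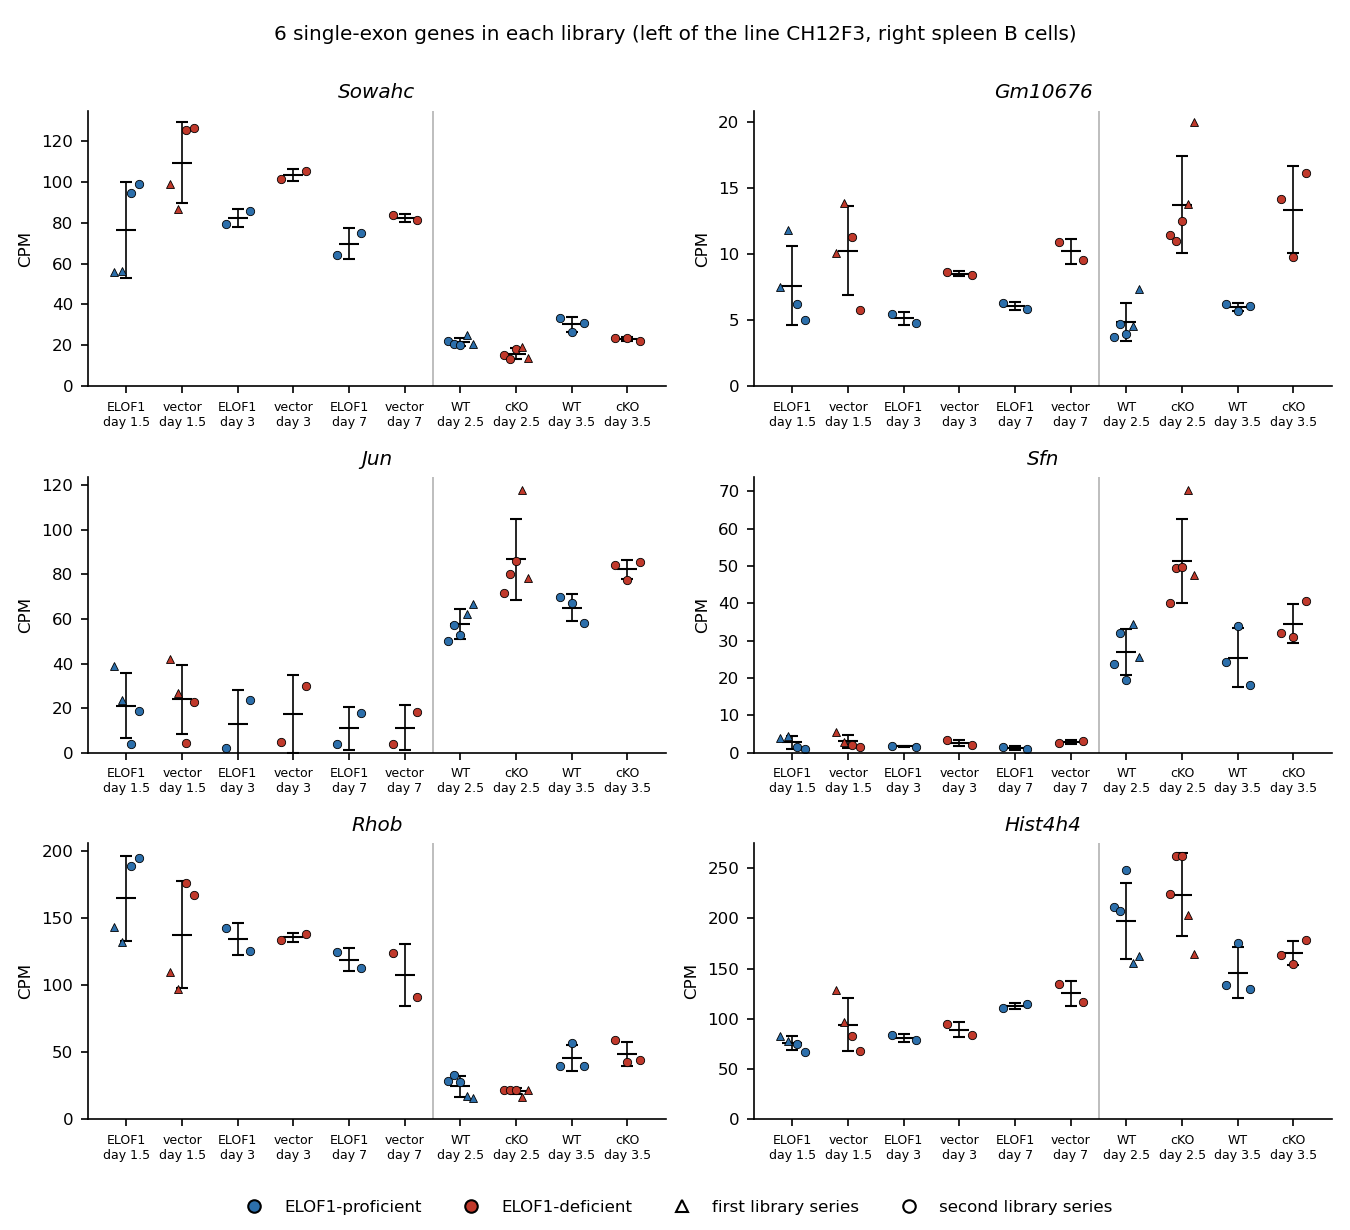
Level of 6 members in each library. The vertical axis is CPM, each column of points is 1 group (genotype and day), blue is ELOF1-proficient and red is ELOF1-deficient, triangles are first-series and circles second-series libraries, and bars are the mean ± SD of the group. Gm10676 in spleen cells at day 2.5 spans 3.77 to 7.35 CPM in wild-type and 10.98 to 20.03 in Elof1-cKO, and Jun in CH12F3 varies from 3.76 to 38.7 within the ELOF1 libraries of day 1.5.

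Jun and Sfn also rose in Elof1-cKO at day 2.5. Jun, an AP-1 subunit gene at chr4:95049034-95052222 on the minus strand, was at 50.3, 57.4, 52.9, 62.0 and 66.5 CPM in wild-type and 71.6, 80.1, 85.8, 118 and 78.3 in Elof1-cKO. The groups did not overlap, and the log2 fold change was 0.58 ± 0.10 (adjusted p 0.0033 by edgeR). Sfn, at chr4:133600556-133602168 on the minus strand, was at 23.7, 31.985, 19.4, 34.6 and 25.7 CPM in wild-type and 40.03, 49.4, 49.6, 70.4 and 47.7 in Elof1-cKO. These groups were apart as well, with a log2 fold change of 0.92 ± 0.18 (adjusted p 0.0063). At day 3.5 Sfn was at 24.4, 33.8 and 18.1 CPM in wild-type and 32.1, 30.99 and 40.6 in Elof1-cKO, so the groups overlapped and it did not pass the test. Jun at day 3.5 was at 69.8, 67.1 and 58.3 CPM against 84.0, 77.3 and 85.3, apart but not past the test.

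Among regulators and receptors, Nrarp, a feedback inhibitor of Notch signalling, was at 3.07, 4.39, 3.59, 3.30 and 2.56 CPM in wild-type and 4.40, 5.05, 7.97, 6.88 and 4.63 in Elof1-cKO at day 2.5. The 2 groups met without overlapping, with a log2 fold change of 0.78 ± 0.21 (adjusted p 0.0444 by edgeR). Purb, which encodes a single-stranded DNA- and RNA-binding regulator, was at 231.3, 234, 241, 223.3 and 271 CPM in wild-type and 296, 291, 302, 278 and 312 in Elof1-cKO. It did not overlap either, at 0.30 ± 0.08 (adjusted p 0.0338). Ffar1, 3838 bases from the B cell receptor inhibitor gene Cd22, was at 9.42 to 16.4 CPM in wild-type (median 11.9) and 13.5 to 34.6 in Elof1-cKO (median 17.6), at 0.75 ± 0.21 (adjusted p 0.0491). Eid1, an inhibitor of the acetyltransferase p300, was at 13.2 to 38.0 against 19.8 to 46.2 CPM, at 0.46 ± 0.12 (adjusted p 0.0434). For Eid1 the first-series replicates 4 and 5 were the highest in both genotypes. The calls of Ffar1, Nrarp, Eid1, Purb, Zbtb11os1 and Sowahc were each lost in 11 or 12 of 18 alternative settings.

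The 3 remaining rises were of entries beside or across from other genes. Gm37305 lies on the other strand of Ccnl1, a cyclin gene involved in splicing, and was at 4.16, 4.39, 4.52, 4.76 and 4.38 CPM in wild-type and 7.76, 9.37, 8.5, 4.88 and 6.28 in Elof1-cKO (log2 fold change 0.70 ± 0.16, adjusted p 0.0189 by edgeR). The lowest Elof1-cKO library, replicate 4, only just cleared the highest wild-type one. Ccnl1 itself was at 0.33 ± 0.11 (adjusted p 0.105). Zbtb11os1, on the other strand of the zinc finger gene Zbtb11, was at 0.826 to 2.88 CPM in wild-type and 2.09 to 4.63 in Elof1-cKO, at 1.03 ± 0.28 (adjusted p 0.0407), and Zbtb11 at 0.03 ± 0.06. ENSMUSG00000096952 has no name in GENCODE M21, lies at chr8:121091628-121094858 on the minus strand and starts 154 bases after the end of Mthfsd. It was at 1.49, 1.08, 0.83, 1.75 and 1.16 CPM in wild-type and 3.37, 3.04, 2.43, 4.01 and 2.85 in Elof1-cKO. The groups were apart (1.32 ± 0.26, adjusted p 0.0071), while Mthfsd was at 0.03 ± 0.09.

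The 1 lower member at day 2.5 was Sowahc, which had been higher in the vector libraries of CH12F3. Wild-type libraries held 21.9, 20.9, 20.2, 25.2 and 20.7 CPM and Elof1-cKO libraries 15.5, 13.5, 18.1, 19.4 and 13.7. Every Elof1-cKO library was below every wild-type library, with a log2 fold change of -0.44 ± 0.12 (adjusted p 0.0346 by edgeR). At day 3.5 it was at 33.5, 26.3 and 31.1 against 23.6, 23.8 and 22.2 CPM, again apart, but at -0.39 ± 0.14 it did not pass the test. The difference between systems was tested in 1 fit of all 32 libraries, chosen after the values were seen. The genotype difference of Sowahc in CH12F3 at day 1.5 exceeded that in spleen cells at day 2.5 by 0.98 ± 0.14 on the log2 scale (adjusted p 0.00056). It was the only member called in that test, where 0.748% of 15639 genes were.

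**Figure D2:**
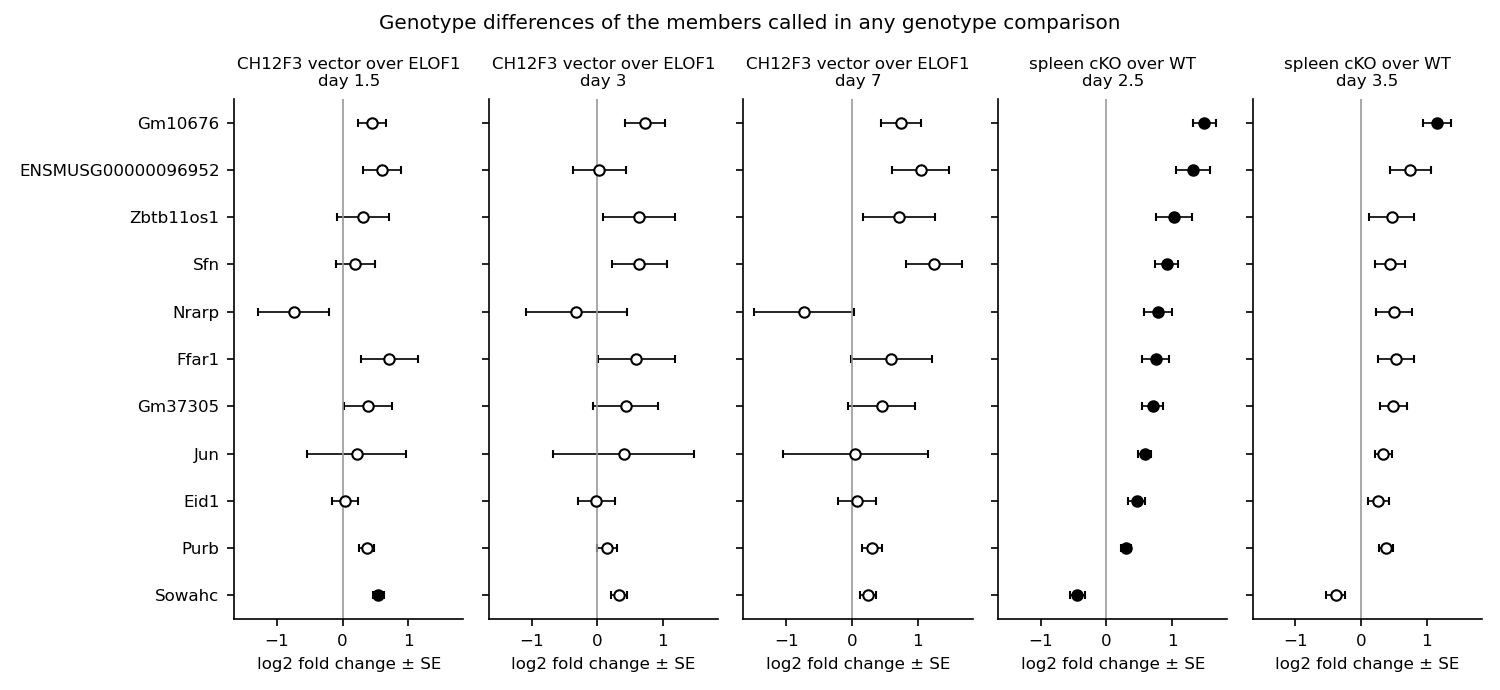
Genotype difference of the 11 members called in any of the 5 genotype comparisons. The horizontal axis is the log2 fold change of ELOF1-deficient over ELOF1-proficient libraries, bars are the SE, and filled points passed an adjusted p of 0.05. Sowahc lies at 0.55 in CH12F3 at day 1.5 and at -0.44 in spleen cells at day 2.5, and Gm10676 is filled on both spleen days, at 1.49 and 1.15.

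At day 3.5 in spleen cells 26 members had an unadjusted p below 0.05 by edgeR, beside 13.5% of all genes. The members' median was 0.14 with 178 positive, and that of all genes -0.00. Under fly scaling these medians were -0.16 and -0.29. In 46 members the 3 and 3 libraries did not overlap, beside 25.1% of all genes. Whether the genotype difference itself changed with the day was tested in each system. For CH12F3 day 3 and day 7 against day 1.5, and for spleen day 3.5 against day 2.5, edgeR called 0 members, DESeq2 called 0, and 0.0% of all genes passed. Unadjusted p was below 0.05 for 1, 13 and 3 members, beside 1.22%, 1.92% and 2.08% of all genes.

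Noncoding members on the other strand of an exon were all positive at day 2.5 in spleen cells. Of these 15 entries, 10 long noncoding RNAs and 5 TEC entries, 15 had a positive log2 fold change with a median of 0.28, and 3 passed the test (Gm10676, Zbtb11os1 and Gm37305). This group was formed after the values were seen. At day 3.5 12 of 15 were positive (median 0.30, 1 called), and in CH12F3 12, 10 and 13 of 15 on days 1.5, 3 and 7 (medians 0.15, 0.31 and 0.18). The library kit is strand-specific per the labels, but whether the counting used strand is not given, so reads of these entries and of the genes across from them may not be told apart.

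With time in culture, the immediate-early members that changed in CH12F3 fell and the histone members that changed rose. From day 1.5 to day 7, averaged over both genotypes, 4 members fell and 2 rose, where 1.32% of genes changed (0.894% fell and 0.43% rose). From day 1.5 to day 3, 0 members passed by edgeR and 4 by DESeq2, where 0.218% of genes passed. Unadjusted p was below 0.05 for 20 members and 8.61% of all genes. In spleen cells from day 2.5 to day 3.5, 8 members rose and 12 fell, where 11.1% of genes changed (7.89% rose and 3.22% fell). Later days hold second-series libraries only, so in each system these contrasts rest on the series term. With the second-series libraries alone, 38 members changed in spleen cells, where 27.1% of genes did.

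Of the 7 immediate-early and AP-1 members, Rhob, Junb and Ier5 fell in CH12F3 by day 7. Rhob was at 143, 132, 189 and 195 CPM with ELOF1 and 110, 97.3, 176 and 167 with vector at day 1.5, and at 125 and 113 and at 124 and 91.2 at day 7. Only the first-series vector replicates 1 and 2 of day 1.5 lay within the range of day 7, and the other 6 libraries of day 1.5 were above it. The log2 fold change was -0.69 ± 0.10 (adjusted p 0.0045 by edgeR). Junb, at 266 to 650 CPM at day 1.5 and 319 to 404 at day 7, fell by 0.51 ± 0.11 (adjusted p 0.0339), and Ier5, which encodes a regulator of the heat shock response, fell by 0.38 ± 0.09 (adjusted p 0.0471). Sowahc, outside this list, fell by 0.54 ± 0.09 (adjusted p 0.0084), from 92.8 ± 26.7 to 76.0 ± 8.54 CPM. Ier2 at -0.40 ± 0.16, Jund at -0.24 ± 0.09, Jun at -0.17 ± 0.77 and Cebpb at -0.15 ± 0.40 did not pass. The Ier5 call was lost in 13 and the Junb call in 10 of 19 alternative settings, the Rhob call in 2, and all 6 calls of this time comparison with fly scaling. Among 14 other genes of the list, 0 rose and 2 fell: Egr2 (-2.34), an early growth response factor, and Fosl2 (-1.15), a partner of Jun proteins in AP-1. The myeloid marker sum was highest at day 7, and its part in these changes was not tested.

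In spleen cells 2 of the same 7 members rose with time and none fell. Rhob was at 28.7, 33.1, 27.5, 17.1 and 15.8 CPM in wild-type and 21.98, 21.8, 21.6, 16.7 and 22.1 in Elof1-cKO at day 2.5, and at 39.96, 56.5 and 39.5 and at 59.1, 42.3 and 44.1 at day 3.5. Every day 3.5 library was above every day 2.5 library (0.87 ± 0.14, adjusted p 0.00061 by edgeR). Ier5 rose by 0.33 ± 0.09 (adjusted p 0.0267 by edgeR), from 121 ± 25.9 to 174 ± 33.6 CPM. The Ier5 call was lost in 8 of 22 alternative settings and the Rhob call in 0. Cebpb at 0.34 ± 0.21, Jun at 0.17 ± 0.09, Junb at 0.16 ± 0.19, Ier2 at 0.12 ± 0.12 and Jund at 0.02 ± 0.12 did not pass. Of 16 other genes of the list 9 rose and 0 fell, among them Fos (2.27), Fosb (2.18), Fosl1 (1.37), Egr1 (1.32) and Egr2 (1.13), with a median of 0.62 beside 0.17 for the members. Whether the 2 systems differ in these time courses was not tested, since days and stimuli differ.

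The 2 histone members that changed in CH12F3 were higher at day 7. In CH12F3 by day 7, Hist4h4, which encodes a core histone H4, rose by 0.70 ± 0.11 (adjusted p 0.0089 by edgeR). It was at 83, 77.8, 74.4 and 66.7 CPM with ELOF1 and 129, 97.1, 82.8 and 67.7 with vector at day 1.5, and at 111 and 115 and at 134 and 116 at day 7. The first-series vector library 1 of day 1.5 was the one at the height of day 7, so the groups overlapped. Hist1h1c rose by 0.44 ± 0.09 (adjusted p 0.0273), a call lost in 9 of 19 settings, and Hist2h3c1 at 0.58 ± 0.17, Hist2h4 at 0.42 ± 0.14, Hist3h2a at 0.38 ± 0.10 and H2afx at 0.31 ± 0.11 did not pass. Over the 9 histone members, a group formed after the values were seen, the median was 0.38.

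In spleen cells 5 of the 9 histone members fell and 1 rose from day 2.5 to day 3.5, with a median of -0.38. The plasma cell marker sum was higher at day 3.5 in both genotypes, and its part in the time changes of spleen cells was not tested. Hist2h4 was at 556, 524, 565, 283 and 605 CPM in wild-type and 456, 500, 424, 285 and 579 in Elof1-cKO at day 2.5, and at 305, 364 and 284 and at 259, 242 and 313 at day 3.5. Replicate 4 of both genotypes, from the first series, was at the level of day 3.5, and the other 8 libraries of day 2.5 were above it. The log2 fold change was -0.77 ± 0.17 (adjusted p 0.0086 by edgeR). Hist4h4 fell by 0.60 ± 0.09 (adjusted p 0.00042), from 210.3 ± 40.0 to 156 ± 20.8 CPM, Hist3h2a by 0.55 ± 0.10 (0.0024), Hist2h2be by 0.66 ± 0.20 (0.0431) and Hist1h1c by 0.37 ± 0.10 (0.0266). The member that rose was H1f0, a linker histone gene expressed outside replication, at 0.51 ± 0.16 (adjusted p 0.046 by edgeR). H1f0 held no stem-loop letters, but neither did Hist2h2be, which fell. Of 22 alternative settings, the call was lost in 12 for Hist2h2be and in 10 each for H1f0 and Hist1h1c. For Hist2h4, Hist3h2a and Hist4h4 it was lost in 0. H2afx at -0.36 ± 0.18 and Hist2h3c1 at -0.32 ± 0.28 did not pass. Of 10 other histone genes of the list, 4 linker histone genes fell in spleen cells (Hist1h1a -0.78, Hist1h1b -0.59, Hist1h1d -0.52 and Hist1h1e -0.46) and Hist1h1b rose in CH12F3 by day 7 (0.46). No histone member changed with genotype by edgeR without the replicate block.

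**Figure D3:**
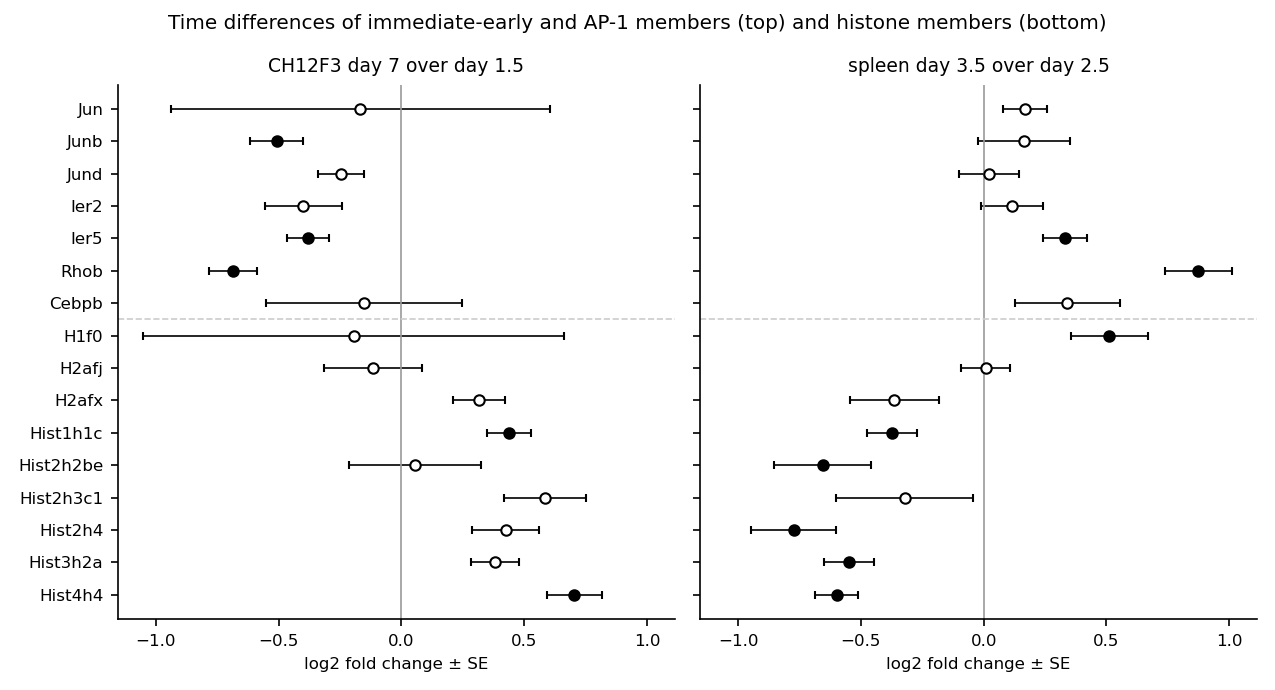
Change with time of 7 immediate-early or AP-1 members (top) and 9 histone members (bottom). The horizontal axis is the log2 fold change of CH12F3 day 7 over day 1.5 or of spleen day 3.5 over day 2.5, bars are the SE, and filled points passed an adjusted p of 0.05. Rhob lies at -0.69 in CH12F3 and 0.87 in spleen cells, and Hist4h4 at 0.70 and -0.60.

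The other 6 spleen members that rose included Gm37352, a TEC entry at chr8:84200869-84203049 on the plus strand away from other genes. It was at 3.97, 4.57, 4.24, 6.79 and 3.47 CPM in wild-type and 5.71, 4.81, 4.63, 5.83 and 4.88 in Elof1-cKO at day 2.5, and at 10.3, 9.19 and 9.76 and at 12.98, 18.01 and 11.2 at day 3.5. The days did not overlap (1.33 ± 0.16, adjusted p 0.0001 by edgeR). Gpr15, a homing receptor gene of lymphocytes, rose by 1.58 ± 0.46 (adjusted p 0.0372) from 1.20 ± 0.933 to 2.96 ± 1.58 CPM. Kctd11, an adaptor of a ubiquitin ligase, rose by 0.73 ± 0.22, Sowahc by 0.55 ± 0.10 and the unnamed ENSMUSG00000093470 by 0.35 ± 0.10. H1f0, given above, was the sixth. Of 22 alternative settings, the call was lost in 12 for ENSMUSG00000093470, 11 for Gpr15, 9 for Kctd11, 1 for Sowahc and 0 for Gm37352. Outside the histone genes, the falls were of 0.25 to 0.39 on the log2 scale. They were in ENSMUSG00000099065, the RNA-binding protein gene Hnrnpa0, the selenophosphate synthetase gene Sephs2 and the ubiquitin ligase adaptor gene Klhl9. The mitochondrial methionyl-tRNA synthetase gene Mars2, the histone kinase gene Haspin and Pcbp1 fell as well. Among these falls the call was lost in 13 of the 22 settings for Pcbp1, 10 for Sephs2 and 1 to 3 for the others.

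The remaining lists gave few calls. Of 6 regulators of transcription without introns, Nrarp and Purb rose in Elof1-cKO at day 2.5 and Zxdb, Jund, Irf2bp1 and Irf2bpl did not pass, beside 2 of 19 other genes of that list (Cited2 and Tob1). Lpar6, Fzd7, the ubiquitin ligase gene Fbxl14, the chaperone gene Dnajc30 and the antisense transcript Kcnq1ot1 did not pass in any genotype or time comparison without the block. Kcnq1ot1, which spans much of Kcnq1 on the other strand, was at 512, 369, 158 and 136 CPM with ELOF1 and 579, 412, 126 and 161 with vector at day 1.5 in CH12F3. The first-series replicates 1 and 2 held more than the second-series replicates in both genotypes. In spleen cells at day 2.5 it was at 464 and 530 CPM in replicate 4 and at 63.9 to 139 in the other 8 libraries. None of the 6 mitochondrial members changed with genotype or time by edgeR. Their median log2 fold changes for genotype were 0.14 in CH12F3 at day 1.5, 0.29 in spleen cells at day 2.5 and -0.18 at day 3.5.

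Members inside introns differed between the library series. First-series libraries held 666 to 906 CPM over the 76 intronic members in CH12F3 and second-series libraries 304 to 482. In spleen cells the sums were 532 to 1114 and 322 to 477. The 106 protein-coding members went the other way, with 5373 to 5624 CPM in the first and 6142 to 7453 in the second series in CH12F3. The median log2 difference of first over second series was 1.77 for the intronic members in CH12F3, with 58 higher and 1 lower, where 38.5% of genes differed (18.4% higher and 20.1% lower), and 1.70 in spleen cells, with 66 higher and 3 lower, where 40.3% did (22.1% higher and 18.3% lower). Protein-coding members had medians of -0.31 and -0.26, and all 252 members 0.13 and 0.38. Read against their hosts, the 72 intronic members with a tested host gene (61 hosts) had a median of 1.80 where the hosts had 0.05 in CH12F3, and 62 of 72 were above their host. In spleen cells the medians were 1.72 and 0.09, with 67 of 72 above. Which step of the preparation the library numbers mark is not given in the sources used here.

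**Figure D4:**
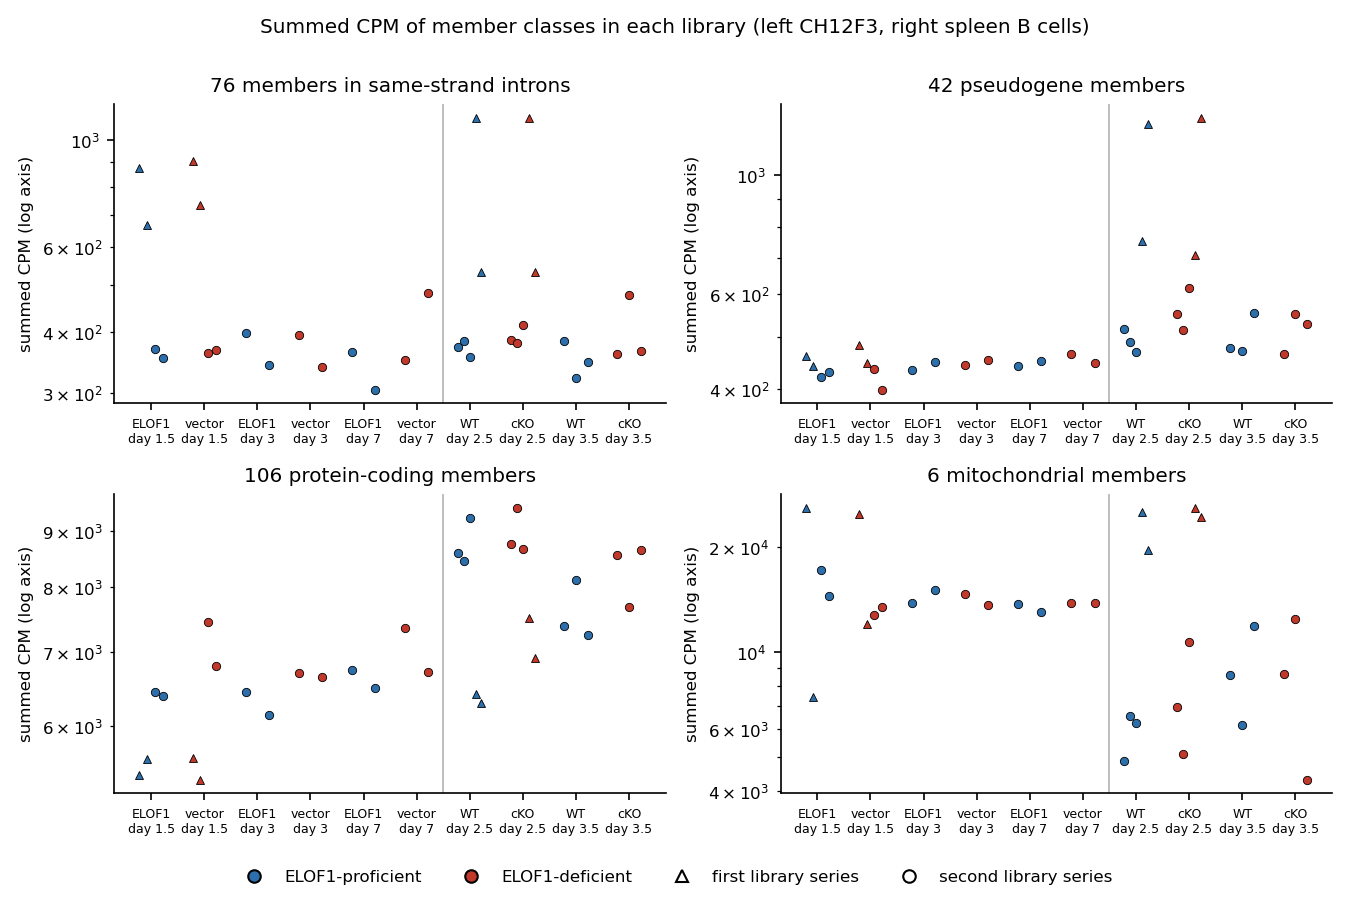
Summed level of 4 classes of members in each library. The vertical axis is the summed CPM on a log scale, columns are groups, triangles are first-series and circles second-series libraries, and colours mark the genotype. The intronic sum reaches 1114 CPM in the first series of spleen cells and at most 477 in the second, while the protein-coding sum spans 6301 to 7516 and 7246 to 9438.

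Intronic members were not alike. Of the 10 with the highest mean counts, Gm38346, a TEC entry inside Fli1, was 2.24 higher on the log2 scale in the first series of CH12F3 and 1.96 in that of spleen cells, where Fli1 was at -0.04 and -0.02. A930004J17Rik inside the splicing factor gene Srsf4 was at 0.95 and 1.33, with the host at 0.13 and 0.16. Of the 7 protein-coding members in introns none was called higher in the first series. Kti12, a tRNA modification gene inside Txndc12, was at -0.81 and -0.88, Galnt4, a glycosyltransferase gene inside Poc1b, at -0.61 and -0.05, and Chml, a Rab escort protein gene inside Opn3, at -0.52 and 0.13. Gm37678 inside Qars was at -0.47 and 0.34, and Gm29170 inside Uchl5 at 0.10 and 0.86. Gm5898 inside Otud7a, a pseudogene, was at 0.68 and 1.73. Hps6, a gene of lysosome-related organelle biogenesis, was at -0.31 and -0.35, and Nsmce3, a subunit gene of a DNA repair complex, at -0.12 and -0.24.

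For genotype, 0 intronic members passed in any comparison by edgeR. Their median log2 fold change in CH12F3 was 0.02 at day 1.5 (39 of 76 positive), -0.07 at day 3 (31) and 0.52 at day 7 (67), where the hosts' median was 0.03 and 62 of 72 members were above their host. The day 7 value rested on 1 library. Vector replicate 2 held 482 CPM over these members and the other 3 libraries of day 7 held 304 to 364. The median was 0.03 without that library and 0.89 without vector replicate 1. Gm38346 was at 1.19 ± 0.39 and Fli1 at 0.21 ± 0.23 at day 7. At day 3 leaving out 1 library gave -0.20 to 0.08. In spleen cells the medians were 0.05 at day 2.5 (48 positive) and 0.25 at day 3.5 (58 positive). The day 2.5 median was 0.35 without wild-type replicate 4, -0.25 without Elof1-cKO replicate 4 and 0.22 without Elof1-cKO replicate 5. At day 3.5 Elof1-cKO replicate 2 held 477 CPM and the other 5 libraries 322 to 384, and the median without it was 0.01. It was 0.00 with scaling by the fly counts.

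**Figure D5:**
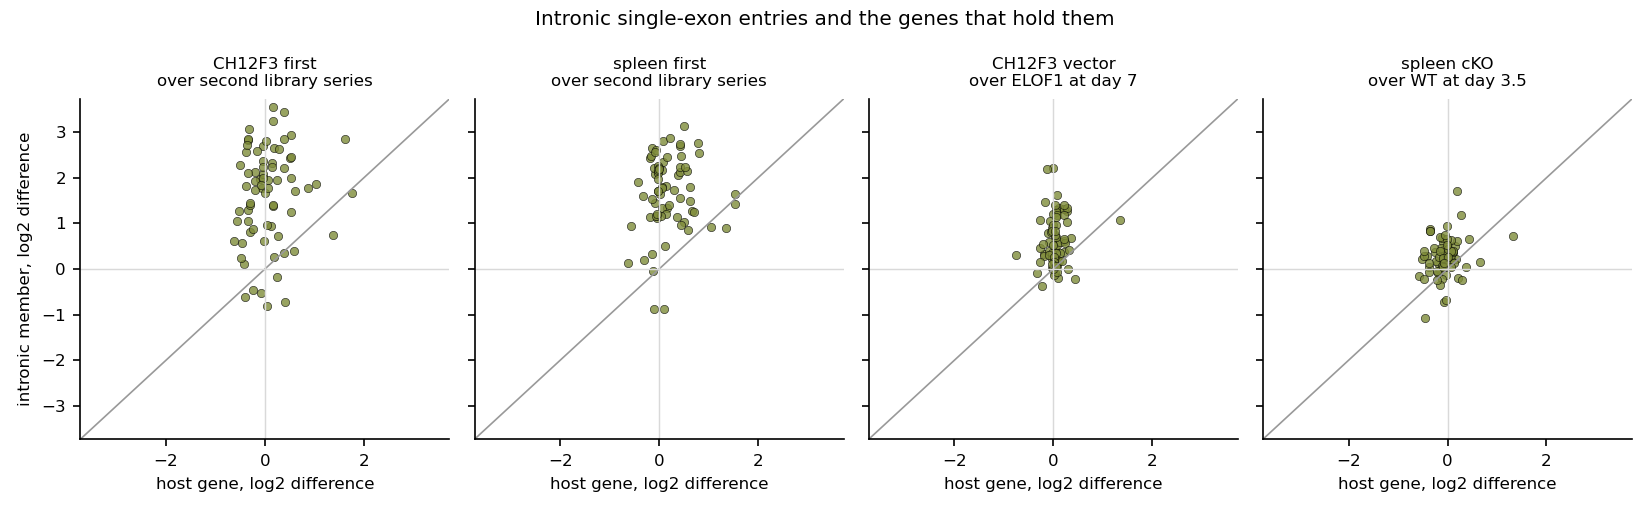
Intronic members against their host genes. Each point is 1 member, the horizontal axis is the host's log2 difference and the vertical axis the member's, for the first over the second library series in CH12F3 and in spleen cells, for vector over ELOF1 at day 7 and for Elof1-cKO over wild-type at day 3.5, and the diagonal marks equal values. In the 2 series panels 62 and 67 of 72 points lie above the diagonal, and 62 and 58 in the genotype panels.

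Pseudogene members were compared by sequence with the coding transcripts of GENCODE M21. All 42 had a match, with a median identity of 98.5% (86.8 to 100%), and 36 had at least 95% identity over at least 90% of their length. Reads of such entries and of the matched genes can be hard to tell apart, and how multiply mapped reads were counted is not given, so pseudogene values are uncertain. The closest matches were Eif4a1 for Eif4a-ps4 (99.9%), a translation initiation helicase gene, Rpl3 for Rpl3-ps1 (99.8%), Hspa8 for Gm15459 (99.7%), Nap1l1 for Gm4204 (99.5%), Eef1a1 for Gm13456 (96.8%) and Gm6548 (96.7%), mt-Co1 for Gm13340 (97.6%), and Gvin1 for Gm1966 (92.9%) and Gm8995 (91.8%). Gm15725 lies in an exon of Lrrc58 and was identical to it. No pseudogene changed with genotype or time by edgeR.

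By library series pseudogenes differed between systems. In spleen cells 32 of 42 were higher in the first series and 0 lower, with a median of 1.16, and in CH12F3 12 were higher and 5 lower, with a median of 0.28, where 22.1% and 18.3% of all genes in spleen cells and 18.4% and 20.1% in CH12F3 did the same. The CH12F3 share in either direction was thus near that of all genes (38.5%). The matched coding genes were nearer to 0. In spleen cells Eif4a-ps4 was at 2.36 ± 0.36 and Eif4a1 at 0.04, Gm15459 at 1.86 ± 0.38 and Hspa8 at -0.31, Gm13456 at 1.49 ± 0.31 and Eef1a1 at -0.07, and Rpl3-ps1 at 1.11 ± 0.30 and Rpl3 at 0.03. Gm4204 was at 1.99 ± 0.20 and Nap1l1 at 1.06. The summed pseudogene level was 711 to 1278 CPM in first-series and 465 to 615 in second-series spleen libraries.

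Most unnamed entries lay close behind another gene. Of the 11, 8 overlapped no other gene, and all 8 began within 5 kb after the end of a same-strand gene, at a median of 1806.5 bases, whereas 30 of all 110 members that overlap no gene did, at a median of 28366.5 bases. ENSMUSG00000093470 begins 1157 bases after Rel, an NF-κB subunit gene, and ENSMUSG00000099065 begins 1986 bases after Pax5, the B cell identity factor gene. From day 2.5 to day 3.5 in spleen cells ENSMUSG00000093470 was at 0.35 ± 0.10 and Rel at 0.28 ± 0.10 (adjusted p 0.0376 and 0.0699 by edgeR), and ENSMUSG00000099065 at -0.39 ± 0.08 and Pax5 at -0.48 ± 0.13 (adjusted p 0.0048 and 0.0295). In this comparison each of these entries had the same sign as the gene before it. ENSMUSG00000096952, at 0.54, and Mthfsd before it, at -0.10 ± 0.08, had opposite signs. For genotype in spleen cells at day 2.5, so did ENSMUSG00000099065, at -0.11, and Pax5, at 0.10 ± 0.15. Other unnamed entries were not set against the gene before them.

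In CH12F3 several members followed the replicate number rather than the genotype, a pattern noticed after the values were seen. Jun was at 38.7, 23.5, 3.76 and 18.6 CPM with ELOF1 and 41.97, 26.97, 4.22 and 22.9 with vector at day 1.5. At day 3 its replicates 1 and 2 were at 2.34 and 23.8 and at 4.82 and 29.8, and at day 7 at 4.07 and 17.7 and at 4.04 and 18.3. Replicate 3 of day 1.5 and replicate 1 of the later days were the low ones in both genotypes. H1f0 was low in the same libraries, at 2.30 to 6.74 CPM, and at 14.2 to 33.2 in all others. Gpr15 was at 8.70 to 11.8 CPM in those 6 libraries and at 14.3 to 20.7 in replicate 4 of day 1.5 and replicate 2 of the later days. The labels do not say what the replicate numbers stand for.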

How the data were processed

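Each of 2 tables holds raw counts per gene for 16 libraries of 1 system, with exon coordinates per the file headers. Reads were aligned with Bowtie2 to mm10 and dm6 and the deposited counts made with featureCounts, per the submitters' processing notes. For strand use, multiply mapped reads and the annotation release, the setting is not given in the sources used here. All table columns belong to a sample of the series. Fly counts, from S2 poly(A) RNA added in proportion to cell number, were 2.15 to 3.52% of mouse counts in CH12F3 and 2.97 to 8.39% in spleen cells, and were kept out of library sizes.

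The set and the gene lists were chosen with earlier results of these data known. Within each system, edgeR 4.0.16 (R 4.3.3) fitted all 16 libraries by quasi-likelihood with TMM scaling, a term for each group and a term for library series, after filterByExpr with a minimum count of 10, which all 252 genes passed. P-values were adjusted by the Benjamini-Hochberg method over all 14201 (CH12F3) or 13367 (spleen) genes tested. The fit was tested on simulated counts for the first-day genotype comparison of each system. These had the same spread for all genes, no library series effect and no pairing, so the test does not cover those features. Alternatives were DESeq2 1.42.0, other scaling, filters, designs and member rules, and leaving out each library. CPM were taken with TMM-scaled library sizes. In CH12F3 same-numbered libraries of the 2 genotypes deviated together (correlations of 0.40 to 0.56), which pairs them by the data and not by the labels. Names, classes, introns and stem-loops came from GENCODE M21 (241 of 252 matched, 191 with the same coordinates), promoters from RefSeq for GRCm38.p6, and pseudogene matches from BLAST 2.17.0. Named are up to 10 rises and 10 falls per comparison, members on a list, the 10 highest per kb, the 10 most counted intronic members and pseudogenes, and genes at the thresholds. Other names were chosen after their values were seen.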

Additional observations from a re-analysis of the deposited data

Results flagged for a closer look

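Libraries standing apart were sought in 108 groups of values. Each group was a gene or a summed class of single-exon genes in the 4 or 5 libraries of 1 genotype and day. In 12 groups a library had a gap to the rest above Dixon's 95% limit. Chance gives about 1 in 20 for independent groups of like libraries, and these were neither. The sums of TEC entries, of TEC entries inside introns and of all intronic members share 55 entries. Every group also mixes both library series, so the 12 cannot be set against that rate. Replicate 4 of spleen cells at day 2.5, a first-series library in each genotype, accounted for 9 of the 12. In wild-type it held 989 CPM of TEC entries where the others held 178 to 318, 892 CPM of TEC entries inside introns (135 to 268), 1114 CPM of all members inside introns (356 to 532), and 283 CPM of Hist2h4 (524 to 605). In Elof1-cKO it held 968 CPM of TEC entries (at most 333 in the others), 870.4 CPM of those inside introns (149 to 254), 1114 CPM of all intronic members (380 to 534), 142 CPM of Hist3h2a (188 to 194) and 16.7 CPM of Rhob (21.6 to 22.1).

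Replicate 5 of the same day, also first-series, stood apart in wild-type for Gm10676, with 7.35 CPM where the others held 3.77 to 4.75, and in Elof1-cKO for the summed pseudogenes, with 1278 CPM (515 to 711). In CH12F3 at day 1.5, vector replicate 1 held 24849 CPM of mitochondrial members and the other vector libraries 12026 to 13432.

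The genotype difference of Sowahc at the first day differed between the systems, by 0.98 on the log2 scale (CH12F3 minus spleen).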

How the results depend on the processing

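Members called at an adjusted p of 0.05 varied with the setting, and the cause was not tested. Called members did not change sign in any setting, and Gm10676 at day 2.5 was called in all 18 settings run. For genotype in CH12F3 at day 1.5 (1 member), DESeq2 called 4, no filter on low counts 9, no library series term 0, scaling by fly counts 0, the second series alone 0, and the 82 members outside other genes that are not pseudogenes 0. At day 7 no filter gave 7 instead of 0, and 2 for the change in genotype difference from day 1.5.

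For genotype in spleen cells at day 2.5 (11), no series term gave 4, only the groups compared 4, fly scaling 1, a mean count of at least 100 gave 4 of 98, a length of at least 2000 bases 7 of 148, and members outside other genes 3. At day 3.5 (1) the counts were 3 with DESeq2, 4 without a filter, 0 without the series term, 6 with only the groups compared, 11 with the second series alone, and 0 with fly scaling, a mean count of at least 100 or members outside other genes. The interaction without a filter gave 1.

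For time, CH12F3 day 3 gave 4 with DESeq2 and 6 without a filter (0), day 7 gave 10 with DESeq2, 15 without a filter, 2 without the series term and 0 with fly scaling (6), and spleen cells gave 5 with fly scaling and 38 with the second series alone (20). Fly scaling moved the median log2 genotype difference of all genes to -0.08, -0.19 and -0.14 in CH12F3 and -0.14 and -0.29 in spleen cells, and that of the members to -0.04, -0.17, -0.01, -0.05 and -0.16.

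With the replicate number as a block, 12 members were called in CH12F3 at day 1.5, 0 at days 3 and 7, and 15 and 5 in spleen cells at days 2.5 and 3.5. In spleen cells the numbers are shared, but same-numbered libraries deviated together only in the first series. The correlation was 0.81 for first-series replicates 4 and 5 of day 2.5, and -0.30 to 0.16 for second-series numbers. The main test had no term for the replicate number.

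Leaving out 1 library gave 1 to 2 members for CH12F3 day 1.5, 0 for days 3 and 7 and for all interactions, 4 to 11 for spleen day 2.5 and 0 to 1 for day 3.5, 0 to 1 and 2 to 6 for CH12F3 time to days 3 and 7, and 11 to 24 for spleen time. A lone library in a group of 2 was assumed to vary like the others. The CH12F3 day 1.5 count was 2 without vector replicate 3, and that of day 3 time was 1 without ELOF1 day 1.5 replicate 3. The CH12F3 day 7 time count was 2 or 3 without ELOF1 or vector day 1.5 replicate 4 or either ELOF1 day 7 library. Spleen day 2.5 gave 4 to 7 without wild-type replicates 1 to 4 or Elof1-cKO replicates 1 to 3. Spleen time gave 11 to 13 without wild-type day 3.5 replicates 1 or 3, Elof1-cKO day 2.5 replicates 1 or 2 or day 3.5 replicates 2 or 3.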
